A study of Mus musculus with 5 samples.

Results

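The 2 stretches of mouse chromosome 7 that lie about 0.5 to 2 Mb from the β-major promoter, one on each side, carried 4C signal that was 2.32 to 3.13 times the mean of the rest of the chromosome beyond them in each of 5 arrays, and the centromeric stretch was about 2-fold brighter than the telomeric one. Together they form a ring around the β-globin locus made of 725 probes on each side, of 57765 probes for chromosome 7 and 385000 on the array. Probes were put in order by the running number in their identifier, since the position was 0 in every row. The ring was chosen by rank around the viewpoint and took ranks 36906 to 37630 on the centromeric side and 38116 to 38840 on the telomeric side. Distances were estimated from 60 kb per 29 probes, and ascending identifiers were taken to run from the centromere to the telomere. The viewpoint itself was selected on the highest running mean of the signals of these arrays, so that a level above the rest of the chromosome is a description of how the ring was placed and was not tested.

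4C captures the DNA that lies near one chosen fragment, the viewpoint, in the nucleus. Chromatin is fixed, cut with a restriction enzyme and ligated under dilute conditions. Inverse PCR from the viewpoint then amplifies whatever was ligated to it, and a microarray whose probes sit next to restriction sites reads the product. Contacts are most frequent close to the viewpoint and become rarer with distance along the chromosome, and beyond that decline clusters of bright probes mark stretches that meet the viewpoint more often than their neighbours. The viewpoint was the promoter of β-major, an adult β-globin gene that fetal liver erythroid cells transcribe at a very high level under the control of the locus control region, a set of distant enhancers. α-Amanitin binds RNA polymerase II and blocks initiation and elongation. DRB inhibits the kinases that phosphorylate serine residues in the tail of the polymerase and thereby blocks elongation.

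All cells came from mouse fetal livers of 14.5 dpc, and chromatin was digested with HindIII and NlaIII. Untreated cells (arrays A and B) were cultured for 5 h without a drug, α-amanitin cells (arrays A and B) were cultured for 5 h with the drug, and DRB cells (1 array) received the drug at 100 µM for 3 h. For α-amanitin the methods give 100 µg/ml and the labels 100 mg/ml. Both A samples were read in Cy3 and the B and DRB samples in Cy5, so an effect of the dye and one of the replicate letter cannot be told apart. The labels do not say whether A and B were separate cultures, while the paper calls its duplicates independent replicate experiments. The p-values here measure the spread between arrays only. Fetal liver at this age holds other cells beside erythroid ones, and no expression was measured on these arrays, so the labelled tissue was not checked against markers. A signal is summed over all cells, so that fewer cells with a contact and rarer contact in each cell cannot be told apart.

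The array-wide median of the deposited signal lay between 419 and 677, with the highest value in α-amanitin A, and 24 to 340 of 385000 probes per array were at the scanner limit. In the ring 4 probes of α-amanitin A and 2 of DRB were at that limit, and none in the other arrays. α-Amanitin A stood apart from the other arrays in the ring, as the rank correlations show, and the main α-amanitin differences are given with and without it. It also stood apart nearer to the viewpoint than the ring, with a median deposited signal of 1988 against 9477 to 15030 in the other arrays. Values are quantile normalized signals unless called deposited, in arbitrary units.

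Olfactory receptor genes crowd the chromosome around the β-globin genes. In the gene order of GRCm38.p6, 48 of the nearest 50 protein-coding genes on the centromeric side had a symbol starting with Olfr, and the others were Usp17lc and Usp17ld, members of a deubiquitinating enzyme family. On the telomeric side 32 of the nearest 50 were Olfr genes. The others there included Trim5, Trim6, Trim12a and Trim30a, members of a family of ubiquitin ligases known for antiviral roles. Usp17la, Usp17lb and Usp17le were among them too, so Usp17 genes lie on both sides. These genes were not matched to probes, and no window is named after a gene. The 725 probes covered 946 identifier numbers on the centromeric side and 1347 on the telomeric side, so that equal numbers of probes need not cover equal lengths.

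The centromeric side was brighter than the telomeric side in every array, and the difference was of similar size with and without the drugs. The mean signal of the centromeric side was 7851 in untreated A and 7714 in untreated B, while α-amanitin A had 5802, α-amanitin B 7867 and DRB 4984. The telomeric side had 3631, 3944, 2458, 3302 and 2242 in the same order. No telomeric value reached the lowest centromeric one. The telomeric minus centromeric difference on the log2 scale was -1.11 and -0.97 in untreated cells, -1.24 and -1.25 in α-amanitin and -1.15 in DRB. The mean was -1.15 ± 0.12 (SD, n = 5), or 2.21-fold higher on the centromeric side in 5 of 5 arrays (exact two-sided sign-flip permutation test, p = 0.0625, the smallest p that 5 arrays allow). The sides are different probes and no genomic DNA was hybridized as a reference, so a difference in how well the probes of each side hybridize cannot be told apart from a difference in contact. The size depended on how probes were averaged. The ratio of the medians of the deposited signals was 1.31, 2.35, 1.01, 1.48 and 1.38, still above 1 in each array but close to it in α-amanitin A.

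**Figure D1:**
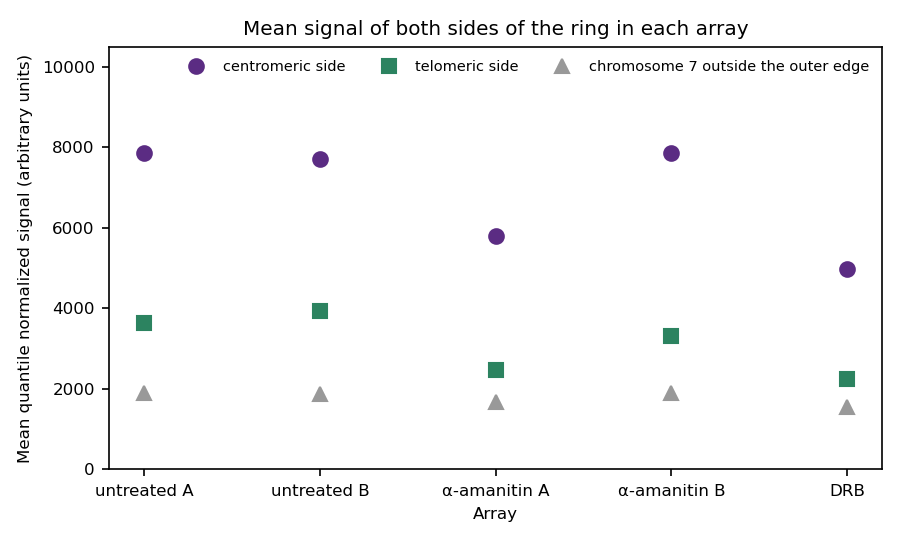
Mean quantile normalized signal (arbitrary units) of the 725 centromeric probes (circles), the 725 telomeric probes (squares) and the 55830 chromosome 7 probes outside the outer edge (triangles) in each of the 5 arrays; each point is 1 array. The centromeric values, from 4984 to 7867, lie above the telomeric ones, from 2242 to 3944, in every array.

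The difference lay in the number of bright probes and in their level, while the dim probes of both sides had similar signals. A probe was called bright when it was above the 95th percentile of all probes of its array. Bright probes made up 27.4% of the ring in untreated A (chromosome 7 as a whole 9.6%) and 35.0% in untreated B (10.9%). After treatment they made up 14.97% with α-amanitin A (7.27%), 30.5% with α-amanitin B (10.1%) and 20.0% with DRB (8.11%). On the centromeric side the share was 36.3%, 42.9%, 21.0%, 41.0% and 28.1% of 725 probes in the same order. On the telomeric side it was 18.5%, 27.2%, 8.97%, 20.0% and 11.9%. Within each array the centromeric share was the higher one, and the difference averaged -16.6 ± 3.26 percentage points (telomeric minus centromeric, SD, n = 5). The bright probes of the centromeric side had a median deposited signal of 9275 to 24593 over the arrays, and those of the telomeric side 7429 to 14244, with the centromeric median higher in each array. The remaining probes had medians of 465 to 666 and 462 to 709, which overlapped.

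**Figure D2:**
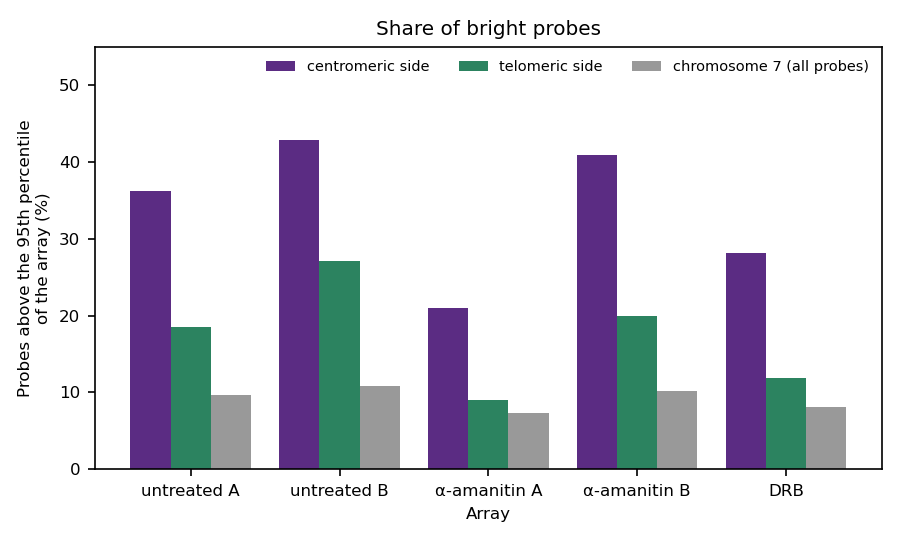
Percentage of probes above the 95th percentile of the array, for the centromeric side, the telomeric side and all chromosome 7 probes, in each array; each bar is 1 array. The telomeric share, 8.97% to 27.2%, is below the centromeric share, 21.0% to 42.9%, within every array.

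More centromeric than telomeric probes were bright in several arrays at once. Of the 725 centromeric probes 183 were bright in both untreated arrays, against 74 of 725 telomeric probes, and 2977 of all chromosome 7 probes (5.15%). In all 5 arrays 51 centromeric (7.03%) and 9 telomeric probes (1.24%) were bright, and 1.71% of chromosome 7. No array had a bright signal at 247 centromeric (34.1%) and 397 telomeric probes (54.8%), against 78.1% of chromosome 7. Of the 257 ring probes bright in both untreated arrays, 70 were bright in both α-amanitin arrays (27.2% of the untreated probes, and 53.4% of the 131 probes bright in both α-amanitin arrays). On the whole chromosome these shares were 36.8% and 51.4%. With DRB 162 were shared (63.0% of the untreated probes and 55.9% of the 290 DRB probes), against 66.6% and 42.3% on the whole chromosome. A single DRB array is an easier match than a pair of α-amanitin arrays, and both comparisons use the same untreated arrays. Of the same 257 probes, 202 were bright in at least 1 α-amanitin array, and 38 were bright in no treated array. On the whole chromosome these were 2494 and 335 of the 2977 probes bright in both untreated arrays.

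The brightest probe of each side behaved differently under α-amanitin. The centromeric probe with the highest untreated signal, MMUS3C0000055034 in window 15, had 59165 and 64844 in untreated cells, 51965 and 38559 in α-amanitin and 18912 in DRB. The telomeric one, MMUS3C0000056447 in window 1, had 53293 and 61856 in untreated cells, 1585 and 2537 in α-amanitin and 56716 in DRB. In deposited signals the centromeric probe was therefore lowest in DRB. The telomeric probe lay between the untreated values in DRB and was low in both α-amanitin arrays. The array-wide 95th percentile was 4802 in DRB against 1382 to 2837 in the other arrays, and scaled values of these probes were not compared. These are single probes chosen for their untreated signal, and no test was made on them.

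Signal within the ring did not fall off evenly with distance. Each side was divided into 25 windows of 29 probes (about 60 kb), numbered from 1 at the inner edge to 25 at the outer edge. The slope of log2 window signal on log2 distance ranged over the arrays from -0.39 to 0.73 on the centromeric side and from -0.26 to 0.26 on the telomeric side, with both signs on each side. On the centromeric side the stretch from 1.1 to 1.4 Mb had the highest or second highest mean of 5 equal stretches in every array, at 14449, 10502, 9188, 13230 and 9327. The stretch from 0.8 to 1.1 Mb, nearer to the viewpoint, had 4326, 5072, 4168, 5642 and 2776. The signal was thus higher beyond a nearer stretch that was dimmer in each array.

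Windows 11, 12 and 21 were the brightest centromeric ones in untreated cells. Window 11, about 1.13 Mb away, had 21612 and 14981 in untreated cells, 12437 and 17739 in α-amanitin and 15108 in DRB. Window 12, about 1.19 Mb away, had 18885 and 17093, 14604 and 22519, and 15512. The ranges of untreated and α-amanitin arrays overlapped in both windows, and DRB lay within the untreated range in window 11 and below it in window 12. With the deposited signals DRB lay above the untreated range in window 12, at 20050 against 16599 and 16021. Window 21, about 1.73 Mb away, had 11885 and 12610 in untreated cells, 12653 and 8000 in α-amanitin and 4711 in DRB. Together the 3 brightest windows of each array held 23.5% to 32.3% of the centromeric signal.

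No telomeric window had a mean of the untreated arrays as high as those of windows 11, 12 and 21. The brightest untreated windows of the telomeric side were 1, 18 and 10. Window 1, next to the inner edge, had 10782 and 9937 in untreated cells, 4857 and 5908 in α-amanitin and 6890 in DRB. Window 18, about 1.55 Mb away, had 6834 and 13435, 2805 and 3470, and 2715. In these 2 windows all treated arrays lay below both untreated arrays. Window 10, about 1.07 Mb away, had 7836 and 3948 in untreated cells, 771 and 7370 in α-amanitin and 2331 in DRB, and the α-amanitin arrays lay on either side of an untreated one. The median window of the telomeric side had 1930 to 3421 over the arrays, and that of the centromeric side 4145 to 6712. Only 1 to 4 of 25 telomeric windows per array exceeded the centromeric median, while 19 to 22 of 25 centromeric windows exceeded the telomeric median.

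**Figure D3:**
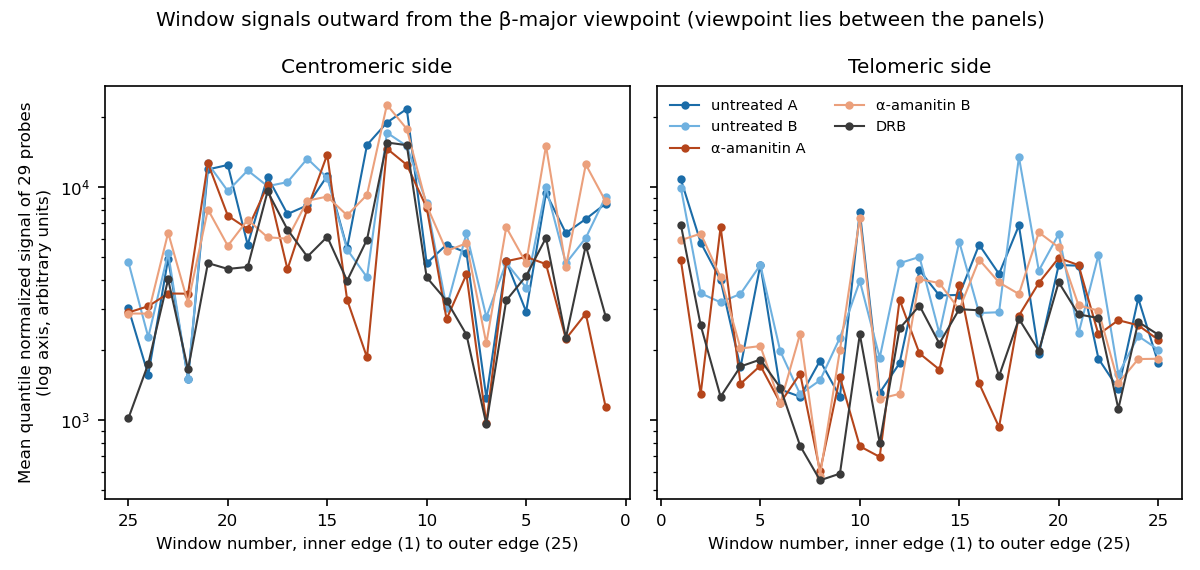
Mean quantile normalized signal of 29 probes (arbitrary units, log axis) for the 25 windows of each side, numbered outward from the inner edge of the ring; each line is 1 of the 5 arrays. Centromeric windows 11 and 12 stand highest in the mean of the untreated arrays, and most telomeric windows lie below the centromeric ones at the same number.

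The edges of the ring were unlike on the 2 sides. The 29 probes just outside the inner edge had untreated means of 11106 on the centromeric and 26216 on the telomeric side, and the 29 probes just inside had 8777 and 10359. At the outer edge, the last 29 probes inside the ring had 3888 and 1883, and the next 29 outside had 4314 and 596. The telomeric side thus started beside a bright stretch and ended at a dim one, and the untreated centromeric signal was of similar level across both edges. In treated cells the centromeric inner edge was steeper in 2 arrays, with 5576 outside against 1135 inside in α-amanitin A and 7149 against 2779 in DRB, while α-amanitin B had 7175 and 8663.

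Compared at equal numbers of probes from the viewpoint, the centromeric window was the brighter one at most distances. It was higher at 19 of 25 distances in each untreated array, at 21 and 24 in α-amanitin and at 21 in DRB. It was higher in all 5 arrays at 15 of 25 distances, against 112 of all 685 distances on the chromosome (16.4%), and at none of the 25 was the telomeric window higher in all 5 arrays, against 26% of 685. The median telomeric minus centromeric log2 difference over the 25 distances was -1.02 in untreated cells, -1.26 in α-amanitin (-0.97 without α-amanitin A) and -1.03 in DRB, and over all 685 distances it was 0.23, 0.19 and 0.11. With limma and Benjamini-Hochberg adjustment over the 685 pairs, the sides differed in untreated cells at 111 distances (16.2%), with the centromeric window higher at 42 (6.13%) and the telomeric one at 69 (10.1%). In the ring 5 of 25 pairs were called, all with the centromeric window higher. The count in the ring was 3 to 8 with any 1 array left out, and 14, of which 13 had the centromeric window higher, when log2 signals were averaged within windows. With the viewpoint moved 29 probes to the centromere it was 7, of which 2 had the telomeric window higher.

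The pairs with the smallest p in untreated cells were 11, 12 and 8. The windows of a pair are different probes, and at an unadjusted p under 0.05 (limma) 217 of 685 pairs (31.7%) differed in untreated cells. The p-values below therefore do not tell contact apart from how well the probes hybridize. The pairing also rests on a viewpoint selected on these signals. In pair 11 the telomeric window had 1308 and 1848 in untreated cells against 21612 and 14981, a log2 difference of -3.53 ± 0.33 (SE; limma, Benjamini-Hochberg adjusted p = 0.000728). Its telomeric values in treated cells were 694 and 1233 in α-amanitin and 796 in DRB, and the log2 difference was -4.01 ± 0.33 in α-amanitin (limma, adjusted p = 0.000611) and -4.25 ± 0.47 in DRB (limma, adjusted p = 0.0110). The DRB test is of 1 array and takes its spread from the other groups. No pair of the ring was called in DRB when log2 signals were averaged, when the viewpoint was moved by 29 probes either way, or when the spread was modelled on the level of the pair, an alternative chosen after seeing the data. Pair 12 had a log2 difference of -2.65 ± 0.58 in untreated cells (limma, adjusted p = 0.0244). Pair 8 had one of -1.82 ± 0.40 (limma, adjusted p = 0.0249), with 5222 and 6320 on the centromeric side against 1797 and 1480. In α-amanitin cells 6 of the 25 pairs were called and in DRB 1, against 16.5% and 2.19% of the 685, and all of these had the centromeric window higher. Over the chromosome the centromeric window was the higher one at 43 called distances in α-amanitin (6.28%) and the telomeric one at 70 (10.2%).

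The question of the drug comparisons was whether contacts of the locus depend on ongoing transcription by RNA polymerase II. In α-amanitin the ring as a whole was dimmer on average, by an amount that depended on 1 array and on the scaling. The mean signal of the ring was 5741 and 5829 in untreated cells, 4130 and 5584 in α-amanitin and 3613 in DRB. Both α-amanitin arrays lay below both untreated ones, α-amanitin B only slightly. The 485 chromosome 7 probes nearer to the viewpoint had 26239 and 25381 in untreated cells, 19495 and 25243 in α-amanitin and 18614 in DRB. Those beyond the ring had 1887 and 1860, 1667 and 1895, and 1556. In α-amanitin the part nearer to the viewpoint was thus also lower in both arrays, and the part beyond was lower in α-amanitin A alone. The log2 difference of the ring in α-amanitin from untreated was -0.27, with SDs of 0.015 in untreated and 0.31 in α-amanitin cells (exact two-sided permutation test over 4 arrays, p = 0.333, the smallest p the design allows). Within the same dye the difference was -0.48 for the A arrays and -0.06 for the B arrays. Without α-amanitin A it was -0.05. With each array divided by its median it was -0.56, and without probes above the 99th percentile also -0.56. The centromeric side differed by -0.20 (exact permutation p = 1.0) and the telomeric side by -0.41 (exact permutation p = 0.333), and no untreated array overlapped the α-amanitin arrays on the telomeric side. Without α-amanitin A the centromeric difference turned to 0.016, and the telomeric one was -0.20.

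In DRB the ring was dimmer than in both untreated arrays by 0.68 on the log2 scale on average, the centromeric side by 0.64 and the telomeric side by 0.76. The rest of chromosome 7 was dimmer too, at log2 14.18 against 14.68 and 14.63 nearer to the viewpoint and 10.60 against 10.88 and 10.86 beyond the ring. The other 6 chromosomes were brighter, at 10.14 against 10.04 and 10.04. With the deposited signals DRB was the brighter one beyond the ring as well, at 1984 against 1722 and 1802. Against untreated B, which has the same dye, the ring differed by -0.69. This is 1 array, and no test was made. DRB cells had 3 h with the drug and untreated cells 5 h of culture, so drug and culture time cannot be told apart. The size rested on the normalization. With the deposited signals it was -0.20, with each array divided by its median -0.27, and with quantile normalization over chromosome 7 alone -0.29. With each array divided by its median DRB was thus less dim than α-amanitin. The array-wide 95th percentile of the deposited signal was 4802 in DRB, above the 1382 to 2837 of the other arrays, and its part in the difference was not tested.

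The drugs did not detectably change the balance between the sides. The telomeric minus centromeric log2 difference moved by -0.21 from untreated to α-amanitin cells (exact permutation p = 0.333, the smallest possible), and the direction turned with the way probes were averaged. It moved by 0.032 when the log2 signals were averaged and by 0.033 when probes above the 99th percentile were left out. For DRB the move was -0.11, about the size of the SD of 0.10 between the untreated arrays. With limma, no pair of windows had a side difference that changed with α-amanitin after Benjamini-Hochberg adjustment, 0 of 685 on the chromosome (0%) and 0 of 25 in the ring. At an unadjusted p under 0.05 there were 25 of 685 (3.65%) and 1 of 25. For DRB against untreated, and between the drugs, 0 pairs (0%) were called as well, with 28 (4.09%) and 21 (3.07%) of 685 at an unadjusted p under 0.05, of which 1 and 0 lay in the ring.

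No single window of the ring changed with either drug by limma after Benjamini-Hochberg adjustment, although more were lower than higher. Of 13260 windows on the 7 chromosomes, 0 (0%) were called for α-amanitin and 0 (0%) for DRB against untreated. At an unadjusted p under 0.05 there were 464 windows for α-amanitin (3.5%), of which 7 of 50 lay in the ring, and 823 for DRB (6.21%), of which 11 lay in the ring. The median log2 difference over the 50 ring windows was -0.28 for α-amanitin and -0.56 for DRB, beside -0.03 and -0.11 over all windows of chromosome 7 and 0.01 and 0.01 over all windows tested. In α-amanitin 36 of 50 windows were below the untreated mean, and in DRB 47 of 50. The matching counts over chromosome 7 were not made, and its medians were negative too. The DRB values depended on the scaling. With the deposited signals the DRB median over the ring was -0.13, with 28 of 50 windows below the untreated mean, beside a median of 0.39 over all windows tested. With quantile normalization over chromosome 7 alone it was -0.19, with 33 of 50 below. The α-amanitin median was -0.28 and -0.23 under these scalings. Without α-amanitin A the median for α-amanitin was -0.02, and 27 of 50 windows were below. Both drugs are compared with the same 2 untreated arrays, so these values are not independent. Against DRB, α-amanitin had 0 called windows (0%), and 829 at an unadjusted p under 0.05 (6.25%), 7 of them in the ring. Doses and times differ between the drugs.

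Windows in which the arrays did not overlap were counted as a description. Both α-amanitin arrays were below both untreated arrays in 11 of 50 ring windows, 4 centromeric and 7 telomeric, against 18.3% of chromosome 7 windows, and above both in 5 of 50, against 15%. α-Amanitin B alone was below both untreated arrays in 17 of 50, against 34.6% of chromosome 7 windows, and above both in 14 of 50, against 34.2%. DRB was below both untreated arrays in 35 of 50 ring windows, 19 centromeric and 16 telomeric, against 40.3% of chromosome 7 windows. It was above both in 3 of 50, against 28.6%. These DRB counts are of quantile normalized signals and depended on the scaling. With the deposited signals 28 of 50 ring windows were below the untreated mean in DRB, which asks less than lying below both arrays.

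The telomeric side held the windows with the smallest p for α-amanitin. Window 8, about 0.95 Mb away, had 1797 and 1480 in untreated cells, 602 and 577 in α-amanitin and 551 in DRB, a log2 difference of -1.47 ± 0.31 for α-amanitin (SE; limma, Benjamini-Hochberg adjusted p = 0.877). Window 1 differed by -0.95 ± 0.22 and window 18 by -1.62 ± 0.42 (limma, adjusted p = 0.877 for both). The untreated and α-amanitin arrays did not overlap in these 3 windows, but with 13260 windows tested none passed. The largest differences in DRB were in centromeric window 25, at 3013 and 4763 in untreated cells and 1016 in DRB (log2 difference -1.90 ± 0.52, limma, adjusted p = 0.545), in telomeric window 18 (-1.82 ± 0.52, limma, adjusted p = 0.570) and in centromeric window 1. Window 1 had 8477 and 9078 in untreated cells, 1135 and 8663 in α-amanitin and 2779 in DRB, a log2 difference of -1.66 ± 1.16 for DRB (limma, adjusted p = 0.9998). There the α-amanitin arrays differed from each other more than DRB did from untreated cells.

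**Figure D4:**
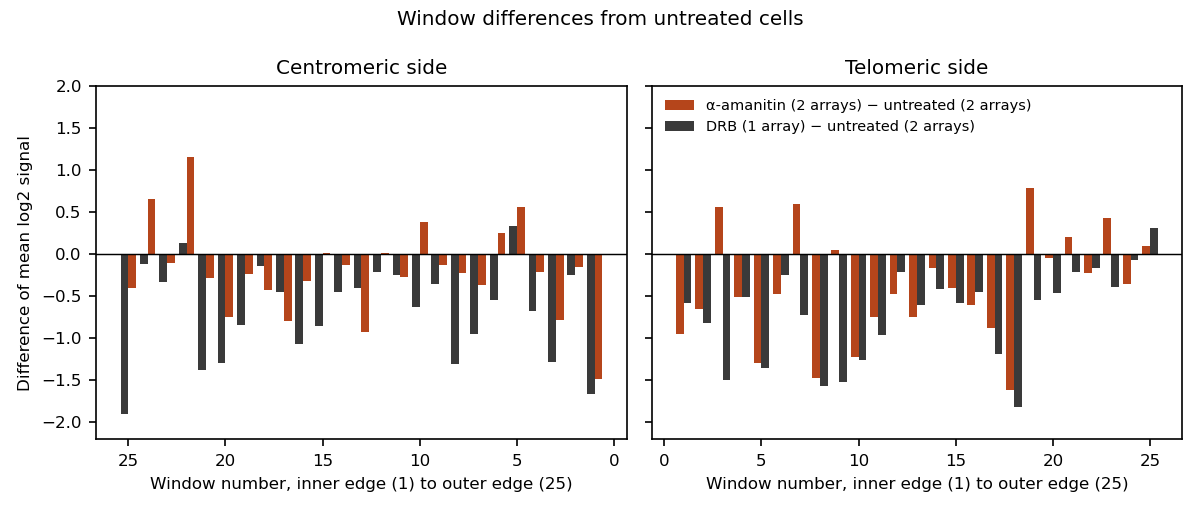
Difference of mean log2 signal from the 2 untreated arrays for each window, for α-amanitin (mean of 2 arrays) and DRB (1 array); bars start at 0. Bars point down in 36 of 50 windows for α-amanitin and 47 of 50 for DRB (28 of 50 for DRB with the deposited signals), and none passed the test. The matching counts over chromosome 7 were not made.

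With the threshold rule of the study, clusters above threshold were found along the centromeric side in every condition and fewer on the telomeric side. The rule takes a running mean of 29 probes on deposited signals and, for each array, the lowest value at which a false discovery rate below 0.05 is reached against shuffled probes of chromosome 7. Thresholds were 6834, 7018, 7799, 7022 and 8045. Of 697 running windows that lie wholly on each side, 315 centromeric and 31 telomeric ones were above threshold in untreated A (all of chromosome 7 3.82%) and 313 and 75 in untreated B (4.08%). α-Amanitin A had 199 and 6 (2.27%), α-amanitin B 281 and 18 (3.73%), and DRB 164 and 3 (1.96%). Neighbouring windows share probes, and these levels belong to the placing of the ring, so the counts are a description. In both untreated arrays 258 centromeric and 17 telomeric windows were above threshold (2.98% of the chromosome), and in both α-amanitin arrays 148 and 0 (1.62%). The telomeric 0 depended on the rule, since a running median gave 128 and 23 in both α-amanitin arrays and a window of 59 probes 310 and 5. In α-amanitin B alone the ring had 299 windows above threshold. All 5 arrays were above threshold in 85 centromeric and 0 telomeric windows (1.12% of the chromosome).

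The windows above threshold in both untreated arrays formed 8 runs on the centromeric side, of 6 to 62 windows, and 5 on the telomeric side, of 1 to 7 windows. The longest run was centered 529 to 590 probes from the viewpoint, about 1.09 to 1.22 Mb. Its peak was 3.67 and 2.83 times the threshold in untreated cells, 2.13 and 3.49 times in α-amanitin and 3.20 times in DRB. All of its 62 windows were above threshold in both α-amanitin arrays and 57 in DRB. This run, which covers windows 11 and 12, thus had a peak above threshold in every array. Of the 8 centromeric runs 5 held at least 1 window above threshold in both α-amanitin arrays and 6 in DRB. The 3 runs without one were those nearest to the viewpoint, at about 0.53 to 0.73 Mb. Their peaks were 0.14, 0.24 and 0.75 times the threshold in α-amanitin A but 1.35, 1.40 and 1.93 times in the other α-amanitin array. Between these 2 arrays α-amanitin A alone thus decided them. In DRB their peaks were 0.61, 0.75 and 1.34 times the threshold. Of the 5 telomeric runs none held a window above threshold in both α-amanitin arrays by this rule, and 1 did in DRB. These runs were short, with a median of 1 window, and lay only at about 0.53 to 0.56 Mb and 1.53 to 1.56 Mb. Neighbouring runs there share probes and are not separate places. All runs were picked for lying above threshold in both untreated arrays, so the run counts are a description and not a test of loss. The telomeric run at about 1.53 to 1.55 Mb, in window 18, had peaks of 1.17 and 1.96 times the threshold in untreated cells, 0.40 and 0.58 times in α-amanitin and 0.43 times in DRB.

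**Figure D5:**
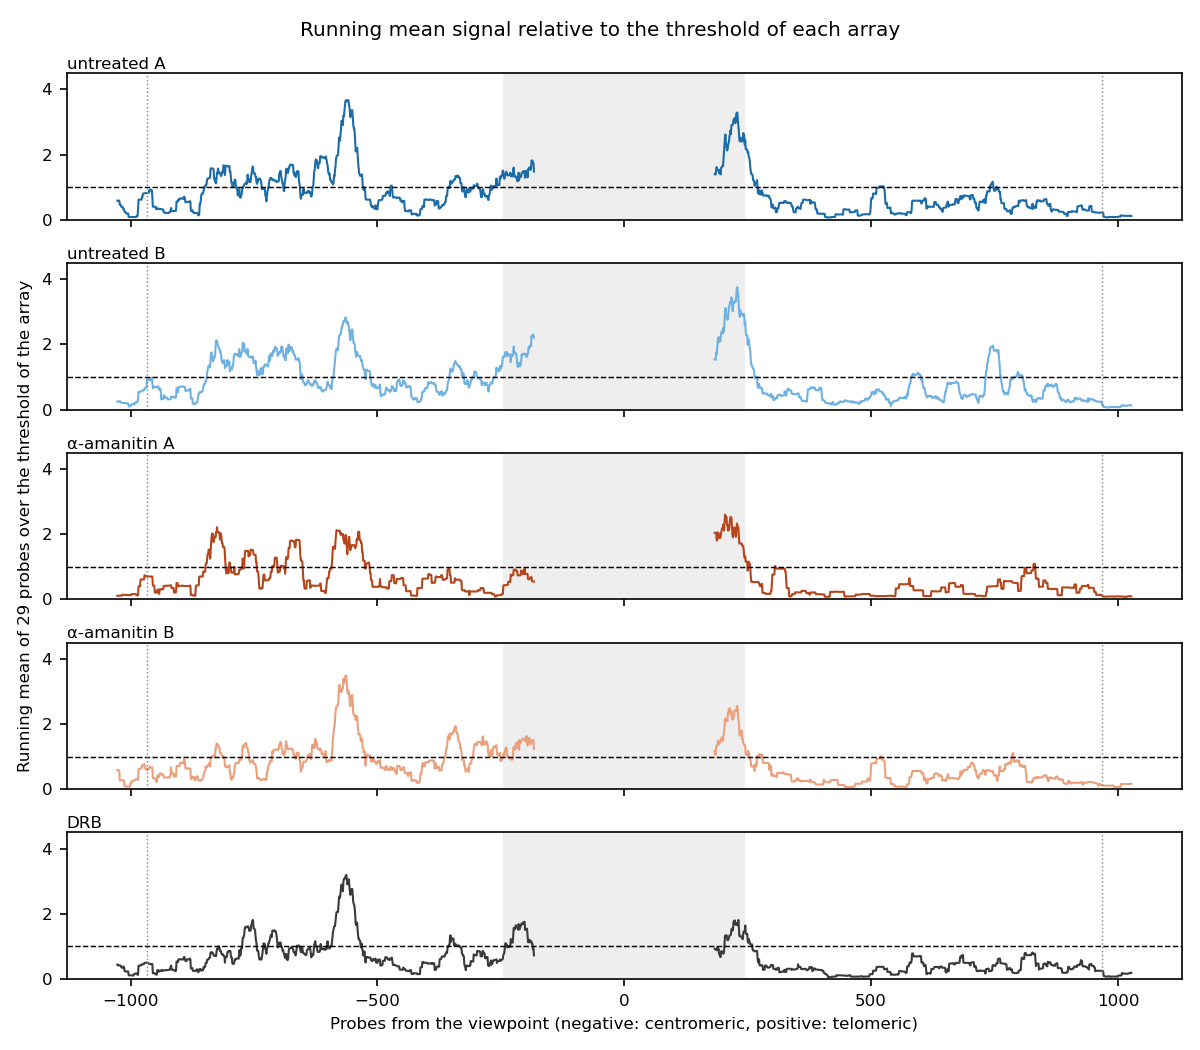
Running mean of 29 probes on deposited signals divided by the threshold of the array (dashed line at 1), against distance from the viewpoint in probes, with the centromeric side at negative values; 1 panel per array. The ring lies between the shaded inner part and the dotted lines, and a centromeric peak about 529 to 590 probes away exceeds the threshold in all 5 panels.

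The order of the 50 windows was similar between arrays, and least so for α-amanitin A. Spearman's rank correlation over the 50 windows was 0.785 between the untreated arrays and 0.553 between the α-amanitin arrays. Untreated with α-amanitin arrays gave 0.686 ± 0.143 (SD over 4 pairs of arrays), and untreated with DRB 0.810 ± 0.019 (SD over 2 pairs). α-Amanitin A correlated with the untreated arrays at 0.496 and 0.678, and α-amanitin B at 0.836 and 0.735. The array that stood apart thus set the lower mean of α-amanitin. On the centromeric side alone the untreated with α-amanitin mean was 0.650, and on the telomeric side alone 0.518. Over the 1940 windows of chromosome 7 outside the ring the untreated arrays correlated at 0.690 and the untreated with α-amanitin arrays at 0.650. Windows share their probes in all arrays, and the sides differ in level, so these correlations are descriptions with no test.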

How the data were processed

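4C products were hybridized to NimbleGen arrays of 385000 probes for 7 mouse chromosomes. The authors deposited raw probe intensity of 1 dye per sample, read with NimbleScan 2.3.19 per the file headers, with no background correction or normalization; the genomic DNA reference was omitted. The second sample on each array is not analysed here. Arrays have no read depth, so their number limits precision.

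Probes were ordered by identifier. Intensities were quantile normalized over all probes, and log2 means of non-overlapping windows of 29 probes, laid outward from the viewpoint, were tested with limma 3.58.1 in R 4.3.3 (lmFit, eBayes with trend, 3 group means, Benjamini-Hochberg adjustment at 0.05). The lone DRB array was assumed to vary like the others. Side differences at equal probe distance were fitted likewise. Whole-ring values used exact permutation tests over arrays. Thresholds used 100 seeded shuffles. Python 3.11.15, numpy 2.4.6, scipy 1.17.1, pandas 2.3.3 and matplotlib 3.10.9 were used, and scripts were tested on simulated data.

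Windows named are the 3 brightest untreated ones per side, the 3 with the smallest limma p for α-amanitin, the 3 with the largest DRB difference and the 3 pairs of windows with the smallest p; the brightest untreated probe of each side is named too. The ring and these rules were chosen with earlier results of these data known. Alternatives varied normalization, averaging, window size, viewpoint, threshold, pairing and arrays left out.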

Additional observations from a re-analysis of the deposited data

How the results depend on the processing

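The ring level in DRB minus untreated was -0.20 with deposited signals, -0.27 with arrays divided by their median, -0.29 with quantile normalization over chromosome 7, -0.57 with averaged log2 signals, -0.60 without probes above the 99th percentile and -0.71 with the viewpoint moved 29 probes to the centromere. With 2 alternatives chosen after seeing the data it was -0.70 (sides matched on identifier numbers) and -0.75 (without centromeric windows 11 to 13). The change of the side difference with α-amanitin turned to 0.032 with averaged log2 signals and to 0.033 without probes above the 99th percentile. The side difference itself was between -1.33 and -0.62 in 14 alternatives, and -0.93 without centromeric windows 11 to 13. The 5 mirror pairs called in untreated ring windows became 14 with averaged log2 signals and 3 to 8 with 1 array left out. Deviations of arrays with the same letter correlated negatively, at -0.249 over 1990 chromosome 7 windows and -0.40 over the 50 ring windows. The replicate block left 2 pairs in untreated and 5 of 6 in α-amanitin cells in the ring, and 0 windows. It took the calls over 685 pairs from 111 to 93 in untreated and from 113 to 79 in α-amanitin cells. A block for the crossed pairing (untreated A with α-amanitin B) was chosen after seeing the data. With it 12 ring pairs in untreated cells and 0 windows were called. Over the 685 pairs it called 218 in untreated and 215 in α-amanitin cells.

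Ring windows above threshold in both untreated arrays, both α-amanitin arrays and DRB numbered 275, 148 and 167. They numbered 105, 54 and 82 with 15 probes and 463, 315 and 370 with 59 probes. At a false discovery rate below 0.01, 98 were left in α-amanitin and 105 in DRB. DRB had 290 with a running median and 107 with quantile normalized signals. With 1 α-amanitin array alone there were 205 to 299. The mean of 370.8 bright ring probes per array became 122.2 at the 99th percentile and 228.8 at the 95th percentile of chromosome 7, and the side difference in their share -7.97 and -11.9 percentage points. The causes were not tested. The ring windows called by limma stayed at 0 for α-amanitin, for DRB and between the drugs in each alternative run. With no normalization, 11 windows of the whole array were called for α-amanitin and 47 for DRB. A design of 2, 2 and 1 arrays cannot give p under 0.333 for ring levels, and probe efficiency was not measured.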
